A study of Mus musculus with 33 samples.

Results

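Genes of androgen synthesis and of the theca and Leydig cell programme, 7 in all, were followed through 33 libraries of polyadenylated RNA from mouse ovary. They are Cyp17a1, Hsd3b6, Hsd17b3, Srd5a1, Cyp21a1, Insl3 and Rxfp2, found by symbol as 7 of the 54347 gene identifiers in the count table. The genes were chosen by their role and by measured levels already known from these libraries, among them the higher Insl3 and Hsd3b6 in the ovaries labelled Fshb(-/-) of experiment 1. Their values in the comparisons of that group are therefore given as a description without a p-value. P-values of members are printed for the other comparisons. Since the choice drew on known levels, these are not independent evidence either. Experiment 1 compared WT, Fshb(+/-) and Fshb(-/-) ovaries, as labelled, with 3 libraries in each group. Experiment 2 compared 4 Fshb(-/-) libraries with 4 that the labels call Fshb(-/-) HFSHB, a human FSHB transgene on the Fshb(-/-) background, so both of its groups carry the mutation. Experiment 3 held 4 libraries labelled KO (anestrus), whose genotype label nevertheless reads WT, and 12 labelled WT, of which 4 were taken at DE, 4 at PE and 4 at E. These stage letters usually stand for diestrus, proestrus and estrus, but the labels do not spell them out. Library titles for experiments 1 and 2 read NS and name no stage. They give no cycle stage for the WT, Fshb(+/-) and HFSHB ovaries, and its part in those levels was not tested. Ages, the promoter of the transgene and whether each library came from a separate animal are not stated in the sources, so p-values measure the spread between these libraries, which may be technical in part.

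The pituitary releases follicle-stimulating hormone (FSH), whose own subunit Fshb encodes, and granulosa cells carry its receptor. Androgen is made in the theca and interstitial cells around the follicle under luteinizing hormone (LH), and granulosa cells turn it into estrogen with aromatase. In that route CYP17A1 cleaves progesterone-type steroids to androgens, 3-beta-hydroxysteroid dehydrogenases such as HSD3B1 and HSD3B6 carry out an earlier oxidation, and SRD5A1 reduces testosterone to dihydrotestosterone. HSD17B3 makes testosterone from androstenedione and is known mainly from the testis. HSD3B6 is likewise known in the mouse from adult Leydig cells, the androgen-making cells of the testis. INSL3 is a peptide hormone of Leydig and theca cells, and RXFP2 is its receptor. CYP21A1, the steroid 21-hydroxylase, is known mainly from the adrenal cortex.

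The total count was 13.59 to 16.93 M (counts per library) in experiment 1, 19.63 to 23.7 M in experiment 2 and 10.09 to 15.93 M in experiment 3. Levels are in CPM, the count of a gene relative to the library size, with library sizes scaled by the trimmed mean of M-values within an experiment. Fshb itself had 0 to 1 counts in the libraries labelled WT of experiment 1 but 68 to 82 in those labelled Fshb(-/-), against the direction of the label. It had 43 to 106 counts in those labelled Fshb(+/-), 119 to 184 in the Fshb(-/-) and 221 to 431 in the HFSHB libraries of experiment 2, 90 to 114 in KO (anestrus) and 0 to 198 at the 3 stages. Among the stage libraries Fshb stood at 0 counts in PE replicates 1 and 2 and E replicate 3. PE replicates 3 and 4 gave 51 and 26, and the DE libraries 60 to 198. E replicates 1, 2 and 4 gave 50, 170 and 60. PE and E thus each mixed libraries without Fshb reads and libraries with them, and their genotype was not tested. Reads of a disrupted and of an intact allele are not separated in the counts, so groups are named as labelled and each direction rests on the labels. Several libraries also carried oviduct RNA. The summed level of 12 oviduct epithelium markers was 42.0 to 83.2 CPM in KO (anestrus). It was 3400 to 7750 CPM in all 4 PE libraries, in DE replicates 1, 2 and 4 and in E replicate 3, and 13.5 to 25.3 CPM in DE replicate 3 and E replicates 1, 2 and 4. In experiment 1, Fshb(+/-) replicate 3 stood apart with 1590 CPM, and in experiment 2 the highest sums were 448 CPM in an Fshb(-/-) library and 603 CPM in an HFSHB library.

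Promoter windows of 300 bases, 250 before and 50 after the start of the gene, were read from the RefSeq promoter table (GRCm38.p6) for the 3 genes with the clearest differences between groups and for Hsd3b1, the neighbour of Hsd3b6 that went the other way. Each is written 5′ to 3′ on the strand of its gene. Capitals mark the letters CAAGGNC, a core of the site read by the steroidogenic nuclear receptor NR5A1. The windows are chr8:71689002-71689301 on the plus strand for Insl3, and on the minus strand chr13:64089152-64089451 for Hsd17b3, chr3:98814394-98814693 for Hsd3b6 and chr3:98859745-98860044 for Hsd3b1.
Insl3: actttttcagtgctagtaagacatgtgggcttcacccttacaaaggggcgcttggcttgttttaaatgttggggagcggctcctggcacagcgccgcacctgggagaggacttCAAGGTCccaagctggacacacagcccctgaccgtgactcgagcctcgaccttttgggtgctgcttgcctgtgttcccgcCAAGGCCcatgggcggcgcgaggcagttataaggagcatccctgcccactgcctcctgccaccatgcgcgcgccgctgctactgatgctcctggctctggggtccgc
Hsd17b3: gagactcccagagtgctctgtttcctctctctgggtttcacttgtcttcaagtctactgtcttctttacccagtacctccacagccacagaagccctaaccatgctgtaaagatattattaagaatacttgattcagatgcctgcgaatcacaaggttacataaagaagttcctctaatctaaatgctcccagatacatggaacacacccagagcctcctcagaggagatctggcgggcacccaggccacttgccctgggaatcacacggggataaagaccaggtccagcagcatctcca
Hsd3b6: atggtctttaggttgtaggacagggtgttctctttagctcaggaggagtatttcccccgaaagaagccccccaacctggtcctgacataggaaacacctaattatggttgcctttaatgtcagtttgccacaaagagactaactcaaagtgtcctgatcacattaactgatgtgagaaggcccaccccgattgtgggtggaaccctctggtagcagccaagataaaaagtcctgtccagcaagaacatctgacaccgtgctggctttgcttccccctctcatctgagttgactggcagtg
Hsd3b1: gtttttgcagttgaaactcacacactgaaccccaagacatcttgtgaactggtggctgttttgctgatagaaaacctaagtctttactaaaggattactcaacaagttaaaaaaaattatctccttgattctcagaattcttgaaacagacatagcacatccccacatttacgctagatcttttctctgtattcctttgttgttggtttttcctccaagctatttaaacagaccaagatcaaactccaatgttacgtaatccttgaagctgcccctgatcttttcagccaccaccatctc
The AAGGTCA half-site of the same receptor class, searched on both strands as AAGGTCA and TGACCTT, was in none of the windows of the 5 listed genes that the table holds (Insl3, Hsd17b3, Hsd3b6, Rxfp2 and Srd5a1) nor in that of Hsd3b1. It was in 4.72% of all 32851 windows. CAAGGNC, with its reverse GNCCTTG, was searched after seeing the data and was in the Insl3 window alone among these 6. It stands there in 2 places, starting 137 and 57 bases before the RefSeq start on which the window is set, which lies downstream of the GENCODE start of Insl3 given with its levels, and it was in 17.8% of all windows. These matches describe letters only and no binding was measured.

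Hsd17b3, Insl3, Hsd3b6 and Cyp21a1 were high in the 3 groups labelled Fshb(-/-) or KO (anestrus) and low in the other 6 groups. Over the 11 libraries of the former, Insl3 ran from 28.2 to 337 CPM, and over the other 22 from 0.151 to 15.8 CPM. For Hsd17b3 the ranges were 6.24 to 59 and 0.0 to 1.05 CPM. For Hsd3b6 they were 1.43 to 10.8 and 0.177 to 1.35 CPM. None of these 3 genes overlapped between the 11 and the 22 libraries, whereas Cyp21a1 met at its edges, with 0.641 to 18.6 against 0.0 to 0.798 CPM. Cyp17a1 was also high in all 11 libraries, at 621 to 1590 CPM, but it ranged from 2.5 to 817 CPM in the other 22. Levels of different experiments stand here side by side without a test, since kit and depth differ. The share of all genes that separate the 11 from the 22 libraries is not given, and the members were chosen by such levels. Nothing is therefore read from this separation.

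**Figure D1:**
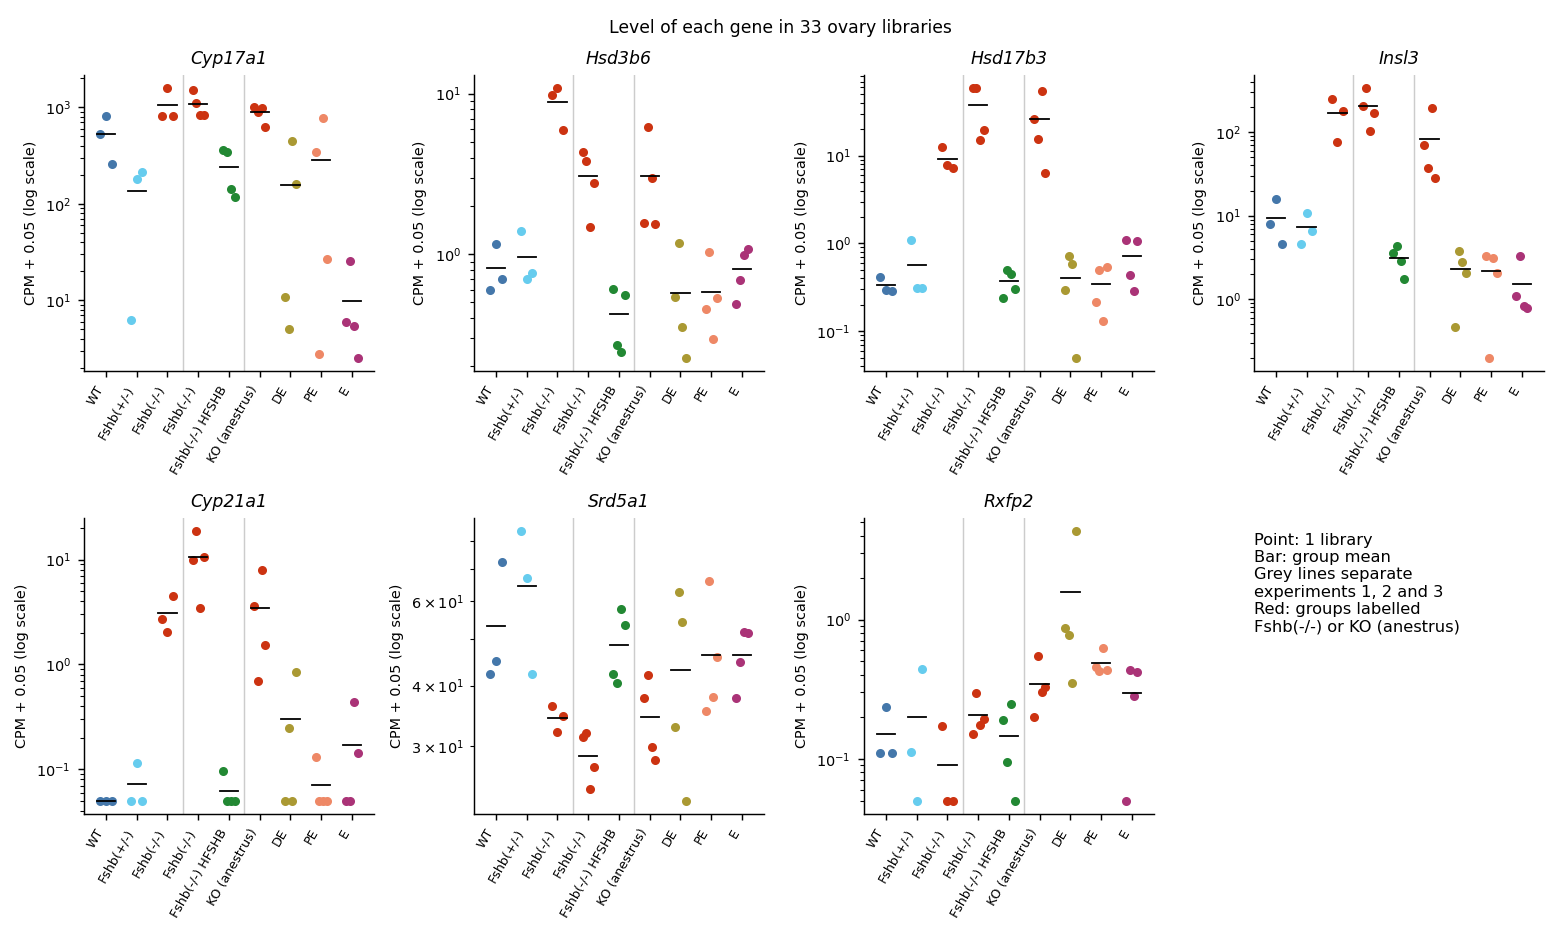
Level of each of the 7 genes in every library, as CPM plus 0.05 on a log scale, by group, with the group mean as a bar. Red points are the Fshb(-/-) and KO (anestrus) groups; Insl3, Hsd17b3 and Hsd3b6 lie above every other group there, Cyp17a1 spreads widely in the stage groups, and Srd5a1 is lower in the red groups of experiments 1 and 2.

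Of the 6 members tested, 5 fell and Srd5a1 rose in HFSHB against Fshb(-/-) ovaries of experiment 2, where 31.9% of all 16871 genes tested were called, 16.2% lower. In experiment 3, where Cyp21a1 and Rxfp2 had too few counts for the fit, 3 of 5 members were called at DE against KO (anestrus), 3 of 5 at PE and 4 of 5 at E, and all of these were lower. The share of all genes called was 25.1%, 33.8% and 18.0% in these comparisons, and the share called lower was 11.6%, 16.3% and 8.98%. The 3 stage comparisons share the 4 KO (anestrus) libraries, so they are not separate evidence. In experiment 1, 4 of 6 members passed the threshold for Fshb(-/-) against WT, beside 7.87% of all genes, and 5 of 6 against Fshb(+/-), beside 17.0%; these counts come from the comparisons in which members were seen, and nothing is read from them. Between Fshb(+/-) and WT no member of 6 was called by edgeR or by DESeq2, 0 had an unadjusted p under 0.05, and 0.0871% of all genes were called. Between stages edgeR called no member of 5, beside 0.0% of all genes; Cyp17a1 had an unadjusted p under 0.05 in 2 of these 3 comparisons, and DESeq2 called it in 1. Calls are edgeR quasi-likelihood tests with Benjamini-Hochberg adjustment over all genes at 0.05. Counting libraries that did not overlap, 5 of the 7 genes were lower and 1 higher in HFSHB than in Fshb(-/-) (17.4% and 16.8% of all genes), and 4, 4 and 5 were lower at DE, PE and E (14.5%, 20.7% and 17.3%). In experiment 1, 4 were higher and 1 lower in Fshb(-/-) than in WT (18.3% and 17.0%), and 5 and 1 against Fshb(+/-) (19.1% and 18.6%). In whole-ovary RNA, fewer cells of a type and less RNA per cell cannot be told apart.

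**Figure D2:**
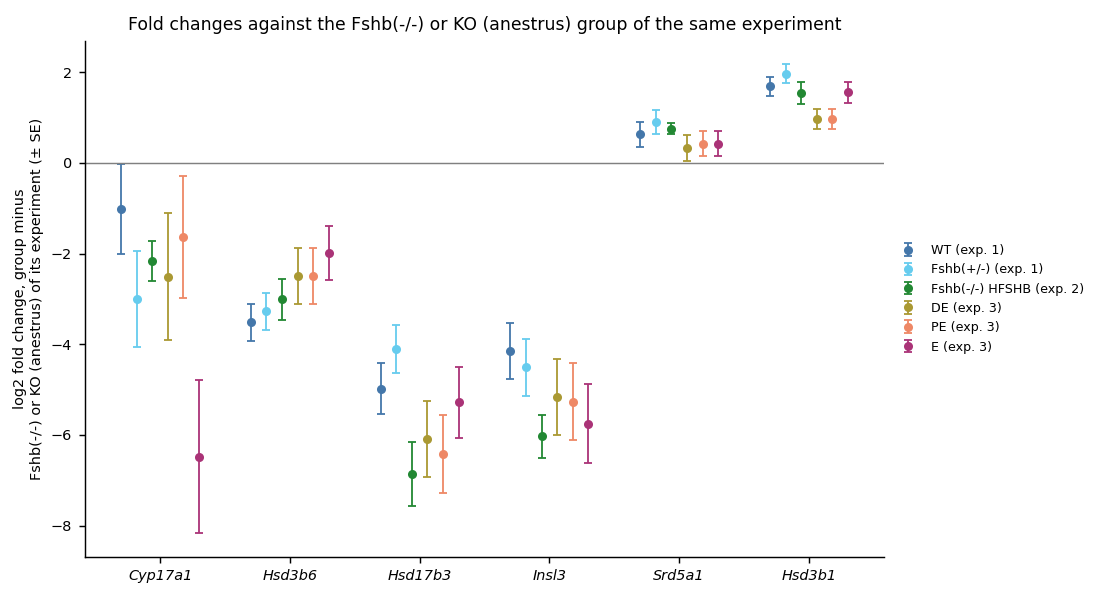
Fitted log2 fold change with its standard error for 5 of the genes and Hsd3b1, each group minus the Fshb(-/-) or KO (anestrus) group of its own experiment. Insl3, Hsd17b3 and Hsd3b6 lie below 0 in all 6 comparisons, Cyp17a1 has the widest errors in experiment 3, and Hsd3b1 lies above 0; comparisons of an experiment share that group.

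Cyp17a1, the enzyme that commits steroids to androgen, was the most abundant of the 7 genes per kilobase of transcript in Fshb(-/-) and KO (anestrus) ovaries. In experiment 2 its level was 1530, 1110, 830 and 831 CPM in the Fshb(-/-) libraries and 363, 342, 141 and 118 CPM in the HFSHB libraries. Every HFSHB library was below every Fshb(-/-) library. The log2 fold change was -2.16 ± 0.44 (SE; adjusted p = 0.01).

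The cycling ovaries varied widely in Cyp17a1. KO (anestrus) libraries had 1020, 905, 998 and 621 CPM. The DE libraries had 10.7, 4.95, 448 and 159 CPM and the PE libraries 343, 2.71, 772 and 26.8 CPM, so both stages held high and very low libraries. The E libraries were all low, at 5.88, 25.2, 5.34 and 2.5 CPM. Cyp17a1 fell at E with a log2 fold change of -6.48 ± 1.69 (adjusted p = 0.017), and all 4 E libraries were below all 4 KO (anestrus) libraries. The call was lost without E replicate 4 (adjusted p = 0.052) and when no filter on low counts was used (0.051). At DE (-2.51 ± 1.4, adjusted p = 0.2) and PE (-1.63 ± 1.35, adjusted p = 0.37) the difference did not pass. Between E and PE the log2 fold change was -4.85 ± 1.57 with an adjusted p of 0.2 by edgeR and 0.021 by DESeq2, and between DE and E it was 3.97 ± 1.52 (adjusted p = 0.45). In the edgeR fit over all 16 libraries no gene of the table was called between any pair of stages, with 407, 3170 and 1796 genes at an unadjusted p under 0.05 for PE against DE, E against PE and DE against E, and DESeq2 called 0, 363 and 8. Without E replicate 3, which alone of its group carried oviduct RNA, edgeR called 1847 genes between E and PE and 1039 between DE and E, Cyp17a1 not among them.

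In experiment 1 Cyp17a1 was at 524, 817 and 260 CPM in WT, 6.18, 183 and 214 in Fshb(+/-) and 807, 1590 and 819 in Fshb(-/-) libraries. WT and Fshb(-/-) overlapped, and all 3 Fshb(+/-) libraries were below all 3 WT libraries. The Fshb(+/-) minus WT log2 fold change was -1.99 ± 1.01 (adjusted p = 0.55), and 9.19% of all genes had groups that did not overlap in that direction. Fshb(-/-) differed from WT by 1.01 ± 0.99 and from Fshb(+/-) by 3.0 ± 1.05 on the log2 scale.

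Hsd3b6 and Hsd3b1, neighbours on chromosome 3 (98805504 to 98814443 and 98852194 to 98859794, GRCm38), moved in opposite directions. In experiment 2 Hsd3b6 was at 4.27, 3.73, 1.43 and 2.73 CPM in Fshb(-/-) and at 0.559, 0.223, 0.197 and 0.506 CPM in HFSHB libraries, with no overlap. It fell with a log2 fold change of -3.01 ± 0.45 (adjusted p = 0.0013). Hsd3b1, the main ovarian form, was at 1760, 1680, 1610 and 1720 CPM in Fshb(-/-) and 3340, 3500, 6170 and 6690 CPM in HFSHB libraries, and rose with 1.54 ± 0.24 (adjusted p = 0.0026).

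In experiment 3 Hsd3b6 fell and Hsd3b1 rose at each stage. Hsd3b6 was at 1.51, 6.19, 2.92 and 1.49 CPM in KO (anestrus) and at 0.177 to 1.12 CPM in the 12 stage libraries, which all lay below it. Its log2 fold change was -2.49 ± 0.61 at DE (adjusted p = 0.011), -2.49 ± 0.61 at PE (0.0082) and -1.99 ± 0.59 at E (0.031). The call at E was lost without any of E replicates 1, 2 or 4 or KO (anestrus) replicates 2 or 3, with an adjusted p of 0.08, 0.076, 0.056, 0.13 and 0.06. Hsd3b1 rose by 0.97 ± 0.23, 0.97 ± 0.23 and 1.56 ± 0.23 (adjusted p = 0.0097, 0.0068 and 0.0005). In experiment 1 Hsd3b6 was at 9.75, 10.8 and 5.9 CPM in Fshb(-/-), above the 0.545 to 1.11 CPM of WT and the 0.647 to 1.35 CPM of Fshb(+/-), with log2 differences of 3.51 ± 0.41 and 3.27 ± 0.41.

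Even where it was highest, Hsd3b6 was a small part of the pair. It made up 0.662% ± 0.224 (SD, n = 3) of the summed Hsd3b1 and Hsd3b6 CPM in Fshb(-/-) of experiment 1, 0.178% ± 0.0693 (n = 4) in Fshb(-/-) of experiment 2 and 0.196% ± 0.147 (n = 4) in KO (anestrus), against 0.00847% to 0.0189% as group means elsewhere. Of the 31-base words of Hsd3b6 transcripts, 29.1% also occur in other genes, 5.99% in Hsd3b1 and 23.3% in Hsd3b2, so its counts are uncertain where the quantifier had to divide reads. Hsd3b1 was lowest in the libraries where Hsd3b6 was highest. Hsd3b2 was at 3.5 to 4.71 CPM in Fshb(-/-) and 4.15 to 4.91 CPM in HFSHB libraries of experiment 2. In experiment 1 it was at 7.11 to 24.0 CPM in Fshb(-/-) against 6.12 to 6.6 CPM in WT, without overlap, and its log2 fold change of 1.36 ± 0.37 did not pass (adjusted p = 0.057). In KO (anestrus) it was at 2.7 to 11.1 CPM, overlapping with the stages.

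**Figure D3:**
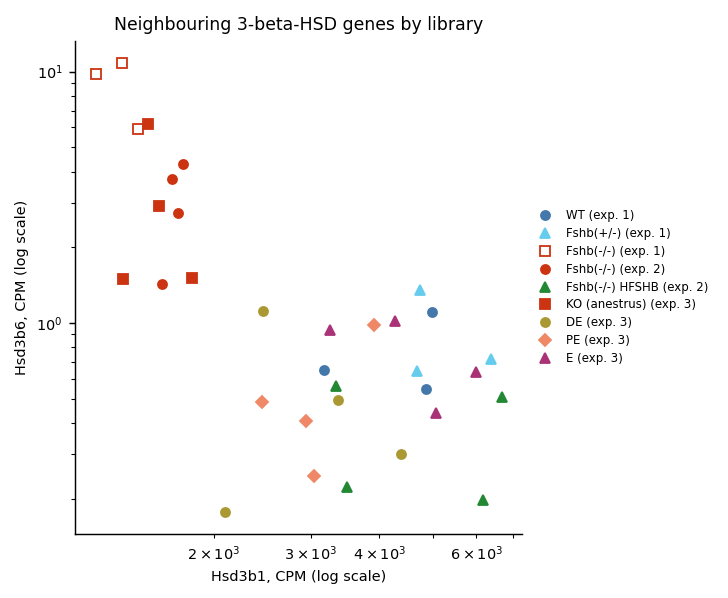
Hsd3b6 against Hsd3b1 in every library, both in CPM on log scales. The 11 Fshb(-/-) and KO (anestrus) libraries lie at 1220 to 1830 CPM of Hsd3b1 and 1.43 to 10.8 CPM of Hsd3b6, and the other 22 at 2100 to 6690 and 0.177 to 1.35 CPM.

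Hsd17b3 (chromosome 13, 64058266 to 64089230) fell in HFSHB ovaries and at each stage, to at most 12 counts in a library. In experiment 2 it was at 58.7, 59, 14.9 and 19.6 CPM in Fshb(-/-) and at 0.186, 0.446, 0.394 and 0.253 CPM in HFSHB libraries, with 4 to 10 counts each. It fell with a log2 fold change of -6.86 ± 0.71 (adjusted p = 0.00049), a ratio of mean CPM of 119. In experiment 3 it was at 26.4, 15.5, 55.1 and 6.24 CPM in KO (anestrus) and at 0.0 to 1.05 CPM in the 12 stage libraries, which did not overlap with them. The log2 fold change was -6.08 ± 0.84 at DE (adjusted p = 0.00035), -6.42 ± 0.86 at PE (0.00025) and -5.28 ± 0.79 at E (0.00057).

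In experiment 1 the Fshb(-/-) libraries had 12.5, 7.84 and 7.13 CPM, the WT libraries 0.363, 0.247 and 0.238 and the Fshb(+/-) libraries 1.04, 0.259 and 0.26. The log2 differences of Fshb(-/-) were 4.98 ± 0.56 and 4.11 ± 0.53. No 31-base word of Hsd17b3 occurs in another gene.

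Srd5a1, the 5-alpha-reductase, went the other way and by less. In experiment 2 it was at 31.2, 31.8, 24.3 and 27.0 CPM in Fshb(-/-) and 42.2, 40.5, 57.6 and 53.5 CPM in HFSHB libraries, without overlap, and rose with a log2 fold change of 0.76 ± 0.13 (adjusted p = 0.0032). In experiment 1 the Fshb(-/-) libraries had 36.2, 32.0 and 34.5 CPM, below all WT libraries (42.3, 44.9 and 72.2) and all Fshb(+/-) libraries (83.7, 66.9 and 42.3), with log2 differences of -0.63 ± 0.27 and -0.91 ± 0.27. In experiment 3 KO (anestrus) libraries at 28.0 to 42.1 CPM overlapped with every stage, and the log2 fold changes of 0.33 ± 0.28, 0.43 ± 0.28 and 0.43 ± 0.28 at DE, PE and E did not pass (adjusted p = 0.41, 0.25 and 0.29). Its locus lies within Nsun2 on the opposite strand, and whether the counts used strand is not stated in the sources.

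Cyp21a1 (chromosome 17, 34801348 to 34804561) had at most 9 counts in any library outside the Fshb(-/-) and KO (anestrus) groups, and it fell in HFSHB ovaries. In experiment 2 the Fshb(-/-) libraries had 195, 450, 81 and 221 counts (9.92, 18.6, 3.41 and 10.6 CPM), and the HFSHB libraries had 1, 0, 0 and 0. It fell (adjusted p = 0.00017), and the ratio of summed counts per total was 919 (95% counting interval 164 to 36300). In experiment 1 it had 44, 27 and 72 counts in Fshb(-/-), 0 in each WT library and 1 over the 3 Fshb(+/-) libraries. The Fshb(-/-) level was at least 17.2-fold higher than WT, taking a count of 0 as up to 3 counts per library, and 147 times Fshb(+/-) by summed counts (26.0 to 5840). Intervals and floors cover counting error only.

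In experiment 3 the KO (anestrus) libraries had 47, 9, 96 and 16 counts of Cyp21a1. The DE libraries had 0, 3, 0 and 9 counts, the PE libraries 1, 0, 0 and 0, and the E libraries 0, 0, 5 and 1. The KO (anestrus) libraries were above all PE and E libraries, while DE overlapped. Two-sided exact permutation tests of log2(CPM + 1), 4 libraries against 4, gave p = 0.057, 0.029 and 0.029 at DE, PE and E, where 0.029 is the smallest p possible, and 0.086 for each after adjustment over the 6 tests of this kind. Of its 31-base words 33.2% occur in the pseudogene Cyp21a2-ps, which had at most 2 counts in any library.

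Genes of the adrenal cortex list were uneven. Cyp11b2, which makes aldosterone, was at 0 counts in 30 libraries and at 1 in the others, and Agtr1b reached at most 3 counts. Cyp11b1, which makes corticosterone, was at 0.0 to 0.295 CPM in Fshb(-/-) and 0.0 to 0.197 CPM in HFSHB libraries of experiment 2, at 0.0 to 0.854 CPM in KO (anestrus) and at 0.0 to 27.5 CPM at the stages. Mc2r, the corticotropin receptor, was at 0.0 to 0.248 CPM in Fshb(-/-) and 0 counts in HFSHB libraries, and at 0.0 to 0.356 CPM in KO (anestrus), up to 3.17 CPM at DE, 3.19 CPM at PE and 0.648 CPM at E. Cyp11b1 and Mc2r thus had their highest levels of experiment 3 at the stages, where Cyp21a1 was low. Akr1b7, an aldo-keto reductase of the adrenal cortex, was higher in Fshb(-/-) than in HFSHB (1.68 to 4.83 against 0.303 to 0.714 CPM) and than in WT (3.38 to 16.1 against 0.178 to 0.848 CPM), as Cyp21a1 was; in experiment 3 it was at 0.931 to 6.69 CPM in KO (anestrus) and overlapped with the stages, the highest library being DE replicate 2 with 21.9 CPM. The summed level of the 9 other genes of that list was 295 to 323 CPM in Fshb(-/-) against 224 to 250 CPM in HFSHB, and 303 to 326 CPM in KO (anestrus) against 196 to 333 CPM at the stages. Dab2 (at most 321 CPM) and Mrap (at most 127 CPM) reached the highest levels of these genes. The sum therefore says little about Cyp11b1, Cyp11b2, Mc2r and Agtr1b, whose levels were far lower. The part of adrenal cells in the Cyp21a1 level was not tested.

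Insl3 (chromosome 8, 71689214 to 71690575) was next to Cyp17a1 in level per kilobase in the Fshb(-/-) and KO (anestrus) groups, whereas Srd5a1 was above it in the other 6 groups. It fell in HFSHB ovaries and at each stage. The Fshb(-/-) libraries had 205, 337, 104 and 170 CPM, and the HFSHB libraries 3.5, 4.33, 2.81 and 1.72 CPM, without overlap. The log2 fold change was -6.03 ± 0.48 (adjusted p = 0.00018), a ratio of mean CPM of 66. In experiment 3 KO (anestrus) libraries had 70.2, 37.2, 192 and 28.2 CPM and the 12 stage libraries 0.151 to 3.69 CPM. Insl3 fell with -5.17 ± 0.84 at DE (adjusted p = 0.0011), -5.27 ± 0.85 at PE (0.00088) and -5.75 ± 0.87 at E (0.00061). In experiment 1 it was at 247, 76.0 and 178 CPM in Fshb(-/-), 7.99, 15.8 and 4.51 in WT and 4.59, 10.8 and 6.57 in Fshb(+/-), with log2 differences of 4.15 ± 0.62 and 4.51 ± 0.63.

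Insl3 lies inside Jak3 on the same strand and shares 63.1% of its 31-base words with it, so the division of reads between them is uncertain. Jak3, a kinase of immune cells, was at 9.76 to 11.1 CPM in Fshb(-/-) and 12.1 to 24.4 CPM in HFSHB libraries of experiment 2, and at 6.41 to 9.31 CPM in KO (anestrus) and 8.7 to 17.5 CPM at the stages. Jak3 was lower where Insl3 was high in experiment 2, and it overlapped between KO (anestrus) and the stages. Its highest level in any library, 34.3 CPM, was below that of Insl3 in every Fshb(-/-) library of experiments 1 and 2. In KO (anestrus) replicate 4 Insl3 was lower than that, at 28.2 CPM. Shared reads can be given to either gene, so these levels do not settle the division. The part of Jak3 reads in the Insl3 level was not tested.

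Rxfp2, the receptor of INSL3, was near the limit of detection and passed the filter in no experiment. It had 0 to 6 counts in each library of experiments 1 and 2 and 2 to 7 in KO (anestrus). At DE the libraries had 0.821, 0.726, 0.3 and 4.25 CPM, at PE 0.408, 0.376, 0.574 and 0.387, and at E 0.0, 0.382, 0.235 and 0.37, beside 0.151, 0.498, 0.25 and 0.279 in KO (anestrus). DE replicate 4, with 48 counts, was the highest of all libraries. Exact permutation tests against KO (anestrus), two-sided, gave p = 0.057, 0.14 and 0.66 at DE, PE and E (0.086, 0.17 and 0.66 adjusted over the same 6 tests). In experiments 1 and 2 its counts were too low for the fit and it was not tested. DE replicate 4 had an oviduct marker sum of 3580 CPM, and the part of oviduct RNA in its Rxfp2 level was not tested.

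Insl3 and Hsd17b3 were low in stage libraries at both oviduct levels. In the 4 stage libraries with oviduct sums of 13.5 to 25.3 CPM, Insl3 was at 2.78, 1.05, 3.25 and 0.741 CPM and Hsd17b3 at 0.525, 1.05, 0.382 and 1.02 CPM (DE replicate 3, E replicates 1, 2 and 4), all below KO (anestrus). Cyp17a1 was at 448 CPM in DE replicate 3 and at 2.5 to 25.2 CPM in the 3 E libraries. In the stage libraries with high oviduct sums Cyp17a1 ran from 2.71 to 772 CPM. At the low oviduct level the high value rests on DE replicate 3 alone and the low values are all from E. Stage and library cannot be told apart there, and the part of oviduct RNA in the Cyp17a1 level was not tested.

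**Figure D4:**
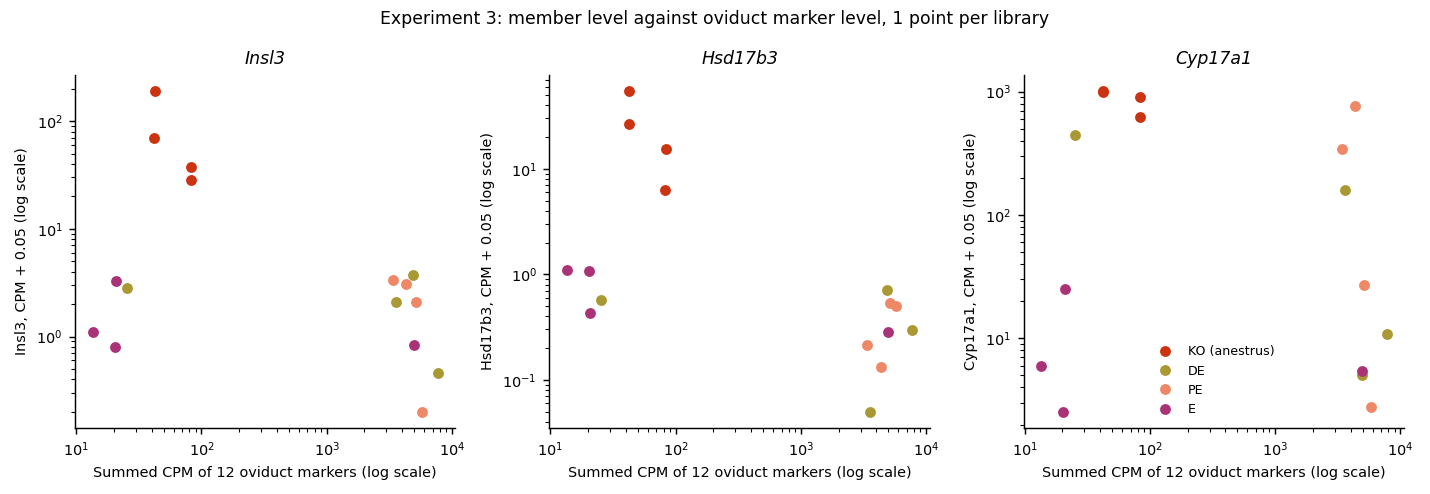
Insl3, Hsd17b3 and Cyp17a1 in the 16 libraries of experiment 3, as CPM plus 0.05, against the summed CPM of 12 oviduct epithelium markers, both on log scales. The KO (anestrus) libraries lie at 42.0 to 83.2 CPM of oviduct markers, and stage libraries below and above that range are low in Insl3 and Hsd17b3.

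Within the Fshb(-/-) and KO (anestrus) groups Insl3, Hsd17b3 and Cyp21a1 were highest in the same library in experiments 2 and 3. KO (anestrus) replicate 3 was the highest of its group in Insl3 (192 CPM), Hsd17b3 (55.1 CPM) and Cyp21a1 (8.0 CPM), and in experiment 2 Fshb(-/-) replicate 2 was the highest in the same 3 genes (337, 59 and 18.6 CPM). Cyp17a1 was at 998 and 1110 CPM in these libraries, between the lowest and the highest of their groups. In experiment 1 the highest Insl3 and Hsd17b3 were in replicate 1 and the highest Cyp21a1 in replicate 3.

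Per kilobase of exon, the mean level in Fshb(-/-) ovaries of experiment 2 ran from Cyp17a1 (389 ± 119 CPM per kilobase, SD, n = 4) over Insl3 (327 ± 158), Hsd17b3 (27.3 ± 17.3), Srd5a1 (9.82 ± 1.22), Cyp21a1 (4.97 ± 2.91) and Hsd3b6 (1.69 ± 0.693) to Rxfp2 (0.0272 ± 0.0114). Cyp17a1 and Insl3 differed by less than their SDs. In E ovaries Srd5a1 led (15.9 ± 2.27), before Cyp17a1 (3.52 ± 3.77), Insl3 (2.34 ± 1.93), Hsd17b3 (0.483 ± 0.305) and Hsd3b6 (0.421 ± 0.15). In WT ovaries of experiment 1 Cyp17a1 was at 193 ± 101, Srd5a1 at 18.3 ± 5.7 and Insl3 at 15.2 ± 9.29 CPM per kilobase (n = 3), and the latter pair differed by less than their SDs.

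Over the 33 libraries, with log2(CPM + 1) centred within each experiment, Hsd17b3, Insl3 and Cyp21a1 had Pearson correlations of 0.924 to 0.951 with each other, and Hsd3b6 had 0.762 to 0.841 with these. Cyp17a1 had 0.685 with Insl3 and 0.388 with Hsd3b6, and Srd5a1 had -0.429 to -0.627 with the 5 others apart from Rxfp2. The libraries of a group share its condition, so these values describe the pattern and carry no p-value. Among 14249 genes, those most like Hsd17b3 were Svs6 (0.96), Sult1e1 (0.954) and Ugt3a2 (0.953), and those most like Insl3 included Svs5 (0.954) and Slc24a2 (0.953). Ugt3a2 (0.882) was also the nearest to Hsd3b6, before Pcsk2 (0.881) and Lgi3 (0.881), and Cyp21a1 was nearest to Insl3 (0.927), Klk1b24 (0.925) and Hsd17b3 (0.924). Cyp17a1 kept other company, with Rgs13 (0.909), Spg20 (0.895) and Arf2 (0.893), as did Srd5a1, with Kcnt1 (0.847), Dnajc15 (0.837) and Bnip3 (0.817), and Rxfp2, with Gjb2 (0.814), Hoxa10 (0.788) and Msx1 (0.778). Svs5 and Svs6 encode seminal vesicle secretory proteins, and Sult1e1 the estrogen sulfotransferase that is also a Leydig cell gene. The lists of nearest genes depend on the processing. Under the alternative tried for them, the result moved for 3 members and stayed the same for 4.

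Among the other steroid pathway genes more rose than fell. Of 23 other pathway genes tested in experiment 2, 11 rose and 3 fell in HFSHB ovaries, beside 31.9% of all genes called. Their median log2 fold change was 0.44 beside 0.0 over all genes. Cyp19a1, the aromatase, rose with 5.26 ± 0.41 (adjusted p = 0.00013), from 2.38 ± 1.15 to 90.3 ± 33.9 CPM. Fdxr and Fdx1, which pass electrons to mitochondrial P450 enzymes, rose with 1.2 ± 0.07 and 1.28 ± 0.15 (adjusted p = 1.3e-05 and 0.00044), and Hsd17b1, which makes estradiol, with 0.81 ± 0.08 (adjusted p = 0.00013). The 3 that fell were Sult1e1 (-8.25), Hsd11b2 (-2.07) and Hsd17b11 (-0.4).

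In experiment 3, 5 of 23 rose and 2 fell at DE. At PE 8 rose and 3 fell, and at E 10 rose and 2 fell. The share of all genes called was 25.1%, 33.8% and 18.0% at DE, PE and E. The medians were 0.64, 0.35 and 0.74 beside 0.01 over all genes. Sult1e1 fell with -5.44 ± 0.91, -6.22 ± 0.98 and -5.94 ± 0.96, from 6.92 ± 2.96 CPM in KO (anestrus) (adjusted p = 0.0012, 0.00071 and 0.00087). Hsd11b2, which inactivates corticosterone, fell with -1.6 ± 0.38 at DE and -2.18 ± 0.38 at PE (adjusted p = 0.0092 and 0.0015), and it also fell at E, with -2.17. Srd5a2, the other main 5-alpha-reductase, rose with 2.79 ± 0.47, 3.67 ± 0.48 and 3.15 ± 0.47 (adjusted p = 0.0013, 0.00018 and 0.00052), from 0.347 ± 0.204 to between 2.5 ± 1.11 and 4.6 ± 2.07 CPM. In HFSHB against Fshb(-/-) ovaries Srd5a2 did not pass (0.15 ± 0.43, adjusted p = 0.82), with 2.47 ± 0.778 and 2.22 ± 1.42 CPM. Fshb(-/-) against WT did not pass either (-2.33 ± 0.82, adjusted p = 0.12). Cyp19a1 rose at PE with 4.43 ± 0.85 (adjusted p = 0.0025) and also at DE and E, with 3.46 and 2.67, and Fdxr at E with 1.51 ± 0.26 (0.0013). In experiment 1, 7.87% of all genes were called for Fshb(-/-) against WT and 17.0% against Fshb(+/-). Of 22 pathway genes, 1 was higher and 4 were lower in Fshb(-/-) than in WT, and 1 and 5 against Fshb(+/-). They included Cyp19a1 (-3.69 ± 0.43 against WT), Cyp11a1 (-1.43 ± 0.34) and Hsd11b2, which was higher (2.0 ± 0.3).

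**Figure D5:**
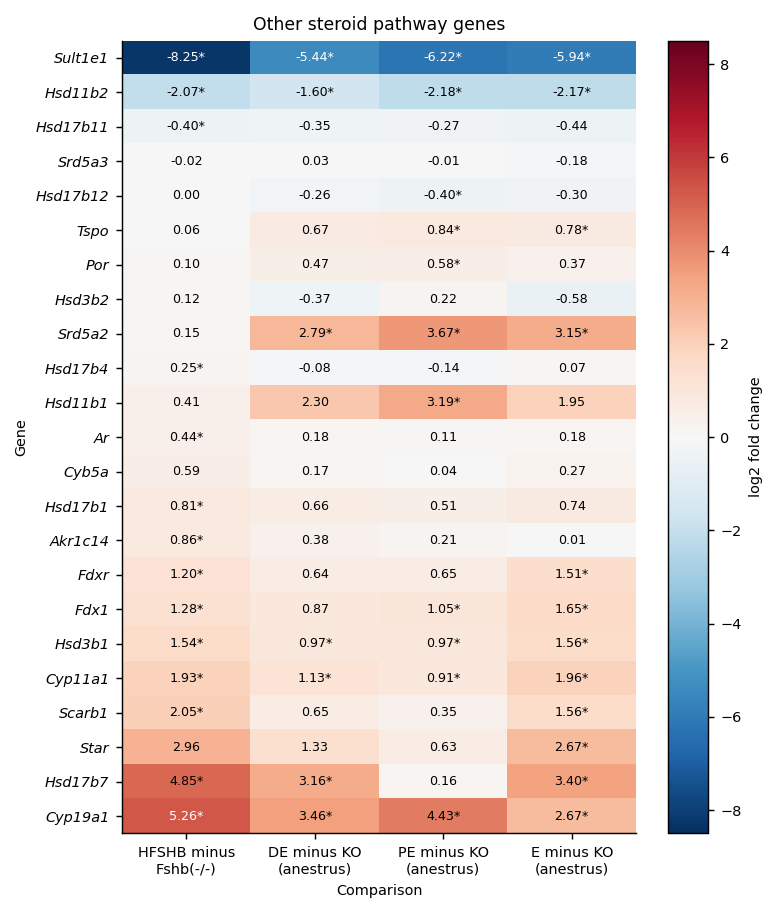
Log2 fold change of the 23 tested steroid pathway genes other than the 7 members, for HFSHB minus Fshb(-/-) and for each stage minus KO (anestrus); an asterisk marks an adjusted p under 0.05. Sult1e1 and Hsd11b2 are lower in all 4 comparisons, and Cyp19a1, Cyp11a1 and Hsd3b1 are higher in all 4.

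The hormone receptors and regulators of theca cells split. Of 18 tested in experiment 2, 6 rose and 6 fell, beside 31.9% of all genes called. Those that rose were Prlr, Lhcgr, Gata6, Nr5a2, Dhh and Insr. Lhcgr, the LH receptor, rose with 1.35 ± 0.4 (adjusted p = 0.038), from 451 ± 111 to 1150 ± 571 CPM. Prlr, the prolactin receptor, rose with 1.56 ± 0.4 (0.023). Ptch1, the Hedgehog receptor that is itself a Hedgehog target in theca precursors, fell with -0.82 ± 0.09 (adjusted p = 0.00023). Nr4a1, a nuclear receptor induced by LH, fell with -1.44 ± 0.18 (0.00078), Wt1, a transcription factor of immature gonadal cells, with -0.95 ± 0.12 (0.00079), and Bmp4 with -0.73 ± 0.1 (0.00093). At DE, PE and E, 2, 2 and 1 of 19 rose and 2, 3 and 2 fell, a share no larger than the 25.1%, 33.8% and 18.0% of all genes called. Ptch1 fell with -0.97 ± 0.12, -1.14 ± 0.12 and -0.86 ± 0.12 (adjusted p = 0.00016, 3.5e-05 and 0.00031) and Wt1 with -0.66 ± 0.14, -0.56 ± 0.14 and -0.68 ± 0.14 (0.005, 0.0084 and 0.004). Gli1, the Hedgehog transcription factor, fell at PE with -0.58 ± 0.16 (0.016), and Gata6 rose at DE, PE and E with 0.51 ± 0.16, 0.43 ± 0.16 and 0.74 ± 0.16 (0.03, 0.047 and 0.0054). Rxfp1, the relaxin receptor, rose at DE and PE from 0.11 ± 0.119 to 18.1 ± 20.0 and 12.4 ± 8.43 CPM (adjusted p = 0.0097 and 0.01), in groups with high oviduct sums, whose part in this was not tested. In experiment 1, 1 of 18 was higher and 2 were lower in Fshb(-/-) than in WT, beside 7.87% of all genes called. Among them were Wt1 (0.77 ± 0.12) and Gata6 (-0.67 ± 0.17).

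Some cell type lists differed between the same groups and others overlapped. Of the 8 Leydig cell genes other than members, 3 rose and 3 fell in HFSHB ovaries, where 31.9% of all genes were called. Their summed level ran opposite to Insl3, at 2790 to 3570 CPM in Fshb(-/-) against 5270 to 15400 CPM in HFSHB, and at 2490 to 3050 CPM in Fshb(-/-) against 3350 to 9020 CPM in WT, both without overlap. In KO (anestrus) it was 1900 to 2810 CPM, overlapping with DE and PE and below the 3470 to 12300 CPM of E. The genes of this list with the highest levels were Cyp11a1, Star, Lhcgr and Prlr (at most 7680, 4240, 1710 and 1700 CPM). These are also on the luteal list, so this sum is not particular to Leydig cells. Sult1e1 of the Leydig cell list fell in HFSHB with -8.25, as Insl3 did. Of the 13 other theca and interstitium genes 5 rose and 4 fell, and their summed level was 5610 to 6210 CPM in Fshb(-/-) and 6090 to 6760 CPM in HFSHB libraries. The summed level of the 10 Sertoli cell genes was 210 to 444 against 71.6 to 77.0 CPM in experiment 2, 207 to 512 in KO (anestrus) against 39.1 to 69.3 CPM at the stages, and 117 to 151 in Fshb(-/-) against 56.1 to 70.1 CPM in WT. The most abundant were Ptgds (at most 311 CPM) and Cldn11 (at most 154 CPM), and Ptgds is also on the Leydig cell list. Of the defining Sertoli genes, Dmrt1 reached at most 11 counts, Rhox5 10 and Tsx 8, and Sox9 was at 3.41 to 6.29 CPM in Fshb(-/-) and 3.03 to 7.89 CPM in HFSHB libraries. Low as it was, Dmrt1 had 5 to 8 counts in Fshb(-/-) against 0 to 1 in HFSHB libraries. It had 3 to 11 in KO (anestrus) against 0 to 1 at the stages, and 1 to 3 in Fshb(-/-) against 0 to 3 in WT. Sox9 was at 3.77 to 8.17 CPM in KO (anestrus), overlapping with DE and E and below the 10.7 to 17.2 CPM of PE. The summed luteal list was 2660 to 3700 CPM in Fshb(-/-) and 7470 to 22800 CPM in HFSHB libraries, with 9 of 10 genes higher, and 2020 to 2930 CPM in KO (anestrus) and 2430 to 18800 CPM at the stages. The oocyte list was 552 to 857 against 268 to 399 CPM in experiment 2, with all 10 genes lower in HFSHB, and 734 to 848 against 110 to 483 CPM in experiment 3. The granulosa list was 2560 to 2900 against 3720 to 4800 CPM in experiment 2, and 2170 to 2490 in KO (anestrus) against 1640 to 5460 CPM at the stages. Adipocyte genes were at 21.8 to 103 against 27.6 to 72.9 CPM and smooth muscle genes at 1020 to 1370 against 1310 to 1660 CPM in experiment 2. In experiment 3 the adipocyte sum had medians of 58.4 CPM in KO (anestrus), 788 at DE, 553 at PE and 144 at E, and the smooth muscle sum 1570, 3520, 3480 and 1840 CPM, so the medians of both were higher at DE and PE, where Insl3 and Hsd17b3 were low, with ranges that overlapped except for smooth muscle at PE. The part of cell composition in the levels of the 7 genes was not tested.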

How the data were processed

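Polyadenylated RNA of 33 mouse ovary libraries was measured, per the labels. The authors deposited estimated counts per gene, made with Salmon on GRCm38 according to the submitters' processing notes, which also name DESeq2 and give no version. Of these values 10.5% to 20.1% per library were not whole. Salmon divides shared reads between genes. Counts were rounded. Symbols came from GENCODE on GRCm38 (54094 of 54347 identifiers; the 253 others held 0.00553% of counts). Each experiment was fitted with edgeR 4.0.16 in R 4.3.3 (TMM, filterByExpr, robust glmQLFit, glmQLFTest, Benjamini-Hochberg over all genes, 0.05), over all its groups and with no replicate block. SEs are the fold change over the root of F. The procedure was tested on simulated counts that had less spread than these data, with changes only in genes of higher counts. That test therefore does not cover genes with few counts or the spread seen here. Libraries of a group differed by more than sampling noise in every pair (chi-square over its degrees of freedom 5.65 to 73.6). Alternatives were DESeq2 1.42.0, no filter, a mean of at least 1 CPM, size factors from the median of ratios, only the groups compared, a replicate block and each library left out. Members and lists were chosen with earlier results of these data known and are not independent evidence. Named genes were the members, Hsd3b1, Fshb, up to 4 called genes with the smallest p per pathway list, and the 3 most correlated genes per member, of which 1 is not reported here; others were named after their values were seen.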

Additional observations from a re-analysis of the deposited data

Results flagged for a closer look

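Of 42 groups of 4 libraries examined, 6 had a library far from the other 3. The rule marks about 1 in 20 groups by chance where values are normally distributed, which counts near 0 are not. A single count beside 0 in the other libraries always passes it. The number of marked groups is therefore not read as an excess over chance. In E ovaries replicate 2 was the highest both in Cyp17a1, at 25.2 CPM beside 2.5 to 5.88, and in Insl3, at 3.25 CPM beside 0.741 to 1.05. Cyp21a1 was at 0.0466 CPM in HFSHB replicate 1 and at 0.0817 CPM in PE replicate 1, which is 1 count each beside 0 in the other libraries. Rxfp2 was at 4.25 CPM in DE replicate 4 beside 0.3 to 0.821, and at 0.574 CPM in PE replicate 3 beside 0.376 to 0.408, a matter of 7 counts against 4 to 5.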

How the results depend on the processing

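In experiment 2 all 6 tested members kept their direction and call under all 14 alternatives, and in experiment 3 so did Hsd17b3 and Insl3 at DE, PE and E and Hsd3b6 at DE and PE. At E against KO (anestrus), 2 to 4 members were called as libraries were left out in turn, 2 of them without E replicate 4; at E against PE DESeq2 called 1, Cyp17a1. The causes were not tested. Uncalled log2 fold changes of Fshb(+/-) minus WT changed sign as libraries were left out: they ran from -0.12 to 1.19 for Hsd17b3, -0.17 to 0.59 for Hsd3b6 and -0.76 to 0.23 for Insl3, and PE minus DE for Cyp17a1 ran from -0.31 to 2.31. With CAAGGNC in place of AAGGTCA, 1 promoter window held the motif and not 0. Deviations from the group means of same-numbered libraries correlated at -0.129 to 0.122, -0.175 to 0.11 and -0.748 to 0.231 in experiments 1, 2 and 3. For libraries with different numbers the ranges were -0.173 to 0.219, -0.317 to 0.427 and -0.329 to 0.609. Such deviations sum to 0 within a group, so these values cannot decide whether a number marks a shared litter, day or batch. With a replicate block 4, 4, 0, 6, 3, 3 and 4 members were called in the comparisons of experiments 1, 2 and 3 against WT, Fshb(+/-) or the Fshb(-/-) and KO (anestrus) groups, and 0 between stages. Counts over all genes moved by more than 1.5 times in 30 alternatives and by less in 109. For Fshb(-/-) against WT (1355 as reported) they were 456, 597, 488, 518 and 526 without Fshb(-/-) replicates 1, 2 and 3 and WT replicates 1 and 2, and 2357 by DESeq2; for Fshb(-/-) against Fshb(+/-) (2928) 1362, 1888 and 1563 without the same Fshb(-/-) replicates; for Fshb(+/-) against WT (15) 9 without WT replicate 3, 7 with a replicate block and 362 by DESeq2. At DE (4249) they were 2422 to 2808 without DE replicates 1 or 4 or any KO (anestrus) replicate, and at E (3042) 1920 to 2025 without KO (anestrus) replicates 1, 3 or 4. For E against PE (0) they were 1847 without E replicate 3, 279 and 1 without PE replicates 2 and 4, 363 by DESeq2 and 2656 with both replicates 3 of DE and E left out; for DE against E (0) 1039, 2, 8 and 2750 without E replicate 3, without DE replicate 3, by DESeq2 and without both. Depth limits Rxfp2 in all groups, and Cyp21a1 outside the Fshb(-/-) and KO (anestrus) groups.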

Other observations

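Cyp11b1, which carries out the last step of corticosterone synthesis and is known from the adrenal cortex, was above 1 CPM in 6 of the 33 libraries, and these were the 6 with the lowest Cyp17a1. They were Fshb(+/-) replicate 1 (Cyp11b1 16.4 and Cyp17a1 6.18 CPM), DE replicate 2 (15.0 and 4.95), PE replicate 2 (27.5 and 2.71) and E replicates 1 (3.51 and 5.88), 3 (21.0 and 5.34) and 4 (23.1 and 2.5). In the other 27 libraries Cyp11b1 was at 0.0 to 0.953 CPM and Cyp17a1 at 10.7 to 1590 CPM. The pattern was noticed in these data and was not tested. Of these 6 libraries, DE replicate 2, PE replicate 2 and E replicate 3 had high oviduct marker sums and the other 3 had sums of 13.5 to 21.1 CPM.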
